A study of Rattus norvegicus with 80 samples.

Results

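Adipocytes and fibroblasts are the main fat-storing and matrix-making cells of the mammary fat pad. Their RNA was compared here in wildtype rats. The samples were chosen by their labels: 3 wildtype adipocyte libraries and 3 wildtype fibroblast libraries, 6 of the 80 libraries of a study of Nf1-mutated rats (19 groups). The adipocytes were described as mature and their RNA was taken with Trizol. The fibroblasts were plated, grown to near confluence and lysed for a column kit, so cell type, culture and extraction method coincide and cannot be told apart in this comparison. Both groups are labelled wildtype, with no treatment given. The submitters' text speaks of flow sorting for the normal tissues, but the gates, the rats' strain, age and sex, and whether a library came from 1 animal are not given in the sources used here. The p-values therefore set the group difference against the spread between these libraries, which may in part be technical. Values from 4 other sources are set beside them: wildtype MECs (cultured mammary epithelial cells, column kit, 3 libraries), wildtype whole pads (Trizol, 6 libraries), the adipocytes and fibroblasts of the Nf1-mutated lines labelled IF, PS and IFPS (3 libraries of each cell type and line), and the tumors of those lines (23 libraries).

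Mature adipocytes hold a single large lipid droplet, take up and release fatty acids and secrete hormones such as leptin and adiponectin. Fibroblasts make and remodel the collagen matrix around the mammary ducts and send growth signals to the epithelium. Both descend from mesenchymal cells, and fibroblast-like progenitors of the pad can become adipocytes. Nf1 encodes neurofibromin, which switches off Ras signalling. The deposited table names genes by Ensembl identifier alone. Of its 32883 identifiers 0 could be paired with a symbol, so marker genes, pathways and Nf1 itself are not reported here. The labelled cell types could therefore not be checked against their marker genes, and the results are given for groups of genes and for 4 identifiers.

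Total counts were 29410342, 27600634 and 31232279 in the adipocyte libraries and 24359974, 26769322 and 27373203 in the fibroblast libraries, inside the range of the other libraries of the series. No library was a copy of another: the chi-square per degree of freedom between replicates was 23.5 or more. The biological coefficient of variation, the spread between replicates beyond counting error, was 20.3% in wildtype adipocytes and 17.3% in wildtype fibroblasts. It lay between 10.9% and 14.1% in the other adipocyte and fibroblast groups except IF adipocytes, where it was 31.5%.

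Fibroblast RNA was more concentrated in its 10 most abundant genes. They took 15.8%, 16.7% and 14.9% of the counts in the fibroblast libraries and 9.30%, 7.80% and 7.20% in the adipocyte libraries, with no overlap between the groups. For the 100 most abundant the shares were closer, 32.5% to 34.8% and 26.6% to 30.7%. The number of genes that made up 50% of the counts overlapped, 400 to 455 in fibroblasts and 446 to 588 in adipocytes. Nearly the same number of genes had at least 1 count, 17310 to 17344 in fibroblasts and 17486 to 18051 in adipocytes. A common core was large: 14579 genes had counts in all 6 libraries, and 11780 identifiers had none in any. The most abundant genes differed. Of the 10 most abundant genes of each cell type 2 were shared, of the 100 most abundant 39, and of the 1000 most abundant 612. For fibroblasts and MECs, both cultured, the shared numbers were 7, 65 and 744.

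Across 13911 genes tested, 9339 (67.1%) differed between the cell types by the quasi-likelihood test of edgeR at a Benjamini-Hochberg adjusted p under 0.05. Of those, 4725 genes (34.0% of those tested) were higher in adipocytes and 4614 (33.2%) were higher in fibroblasts. These differences had an absolute log2 fold change of 1.16 at the median. A stricter test asked whether the change exceeded 2-fold (edgeR's glmTreat). It called 1925 genes higher in adipocytes (13.8%) and 1933 higher in fibroblasts (13.9%), together 3858. These 2 sets are called the adipocyte-higher and the fibroblast-higher genes below. The median log2 fold change, adipocytes minus fibroblasts, was 3.03 in the adipocyte-higher genes and -2.89 in the fibroblast-higher genes, against 0.01 over all genes tested. The gene just inside the threshold had an adjusted p of 0.04996 and an absolute log2 fold change of 3.18, and the one just outside had 0.0501 and 1.55.

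**Figure D1:**
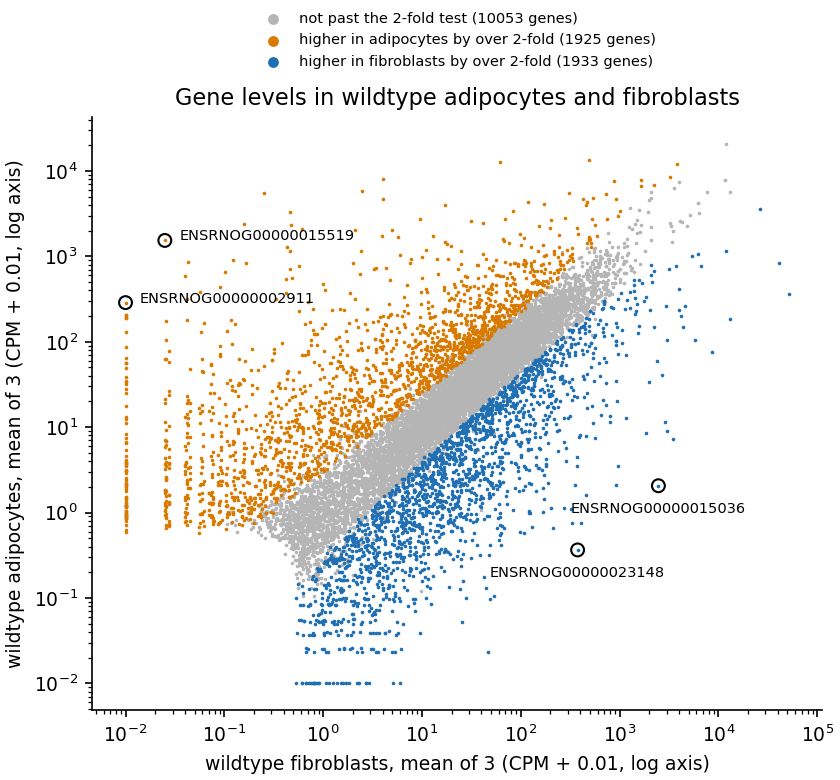
Mean level of each of the 13911 tested genes in wildtype fibroblasts (horizontal) and wildtype adipocytes (vertical), in CPM (counts scaled to a common library total) plus 0.01 on log axes, each a mean of 3 libraries. Orange and blue points are the 1925 and 1933 genes past the 2-fold test, grey points the others, and circles mark the 4 named identifiers. The orange points reach further from the diagonal than the blue ones.

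The 2 sets were of nearly equal size, but the very large differences lay more often on the adipocyte side. Fold changes over 4 were found for 1422 adipocyte-higher and 1407 fibroblast-higher genes. Fold changes over 64 were found for 281 adipocyte-higher and 118 fibroblast-higher genes, and over 256 for 118 and 20. In these numbers the 78 adipocyte-higher and 29 fibroblast-higher genes at 0 counts in the other cell type stand at their lower bound, with a floor of 3 counts over that group. The medians of the sets were the same at the bound. Among the 2548 genes with a mean level of at least 100 CPM, 441 were adipocyte-higher and 274 fibroblast-higher. Between 1 and 10 CPM the order was the opposite, with 563 adipocyte-higher and 738 fibroblast-higher of 3485 genes.

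The sets made up similar parts of their own cell type's RNA. The adipocyte-higher genes took 38.8%, 33.8% and 32.2% of the counts in the adipocyte libraries and 5.65%, 5.04% and 5.14% in the fibroblast libraries. The fibroblast-higher genes took 33.0%, 33.7% and 30.9% of the counts in the fibroblast libraries and 3.01%, 3.70% and 3.98% in the adipocyte libraries. Adipocyte replicate 1 was highest for the first set and lowest for the second. These shares describe sets chosen on the same 6 libraries. Most genes of each set were still detectable in the other cell type: 1721 to 1745 of the 1925 adipocyte-higher genes had at least 1 count in a fibroblast library, and 1803 to 1871 of the 1933 fibroblast-higher genes had one in an adipocyte library. Whether those counts come from the labelled cells or from other cells in the preparation was not tested.

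A smaller group of genes was seen in one cell type alone, with at least 10 counts in each of its 3 libraries and 0 in all 3 of the other. There were 88 such genes in adipocytes and 27 in fibroblasts. Of these, 78 and 27 passed the low-count filter and were tested, and all of those tested passed the 2-fold test. They were mostly of low level. The median over the 88 adipocyte genes was 2.09 CPM and 22 of them reached 10 CPM, while the 27 fibroblast genes had a median of 1.14 CPM and a highest level of 6.02 CPM. With a floor of 3 counts over the group at 0, the median gene was at least 44.0-fold higher in adipocytes and at least 26.0-fold higher in fibroblasts. Leaving out a library loosens this rule, so the numbers can only rise or stay: without fibroblast replicate 1 the adipocyte number was 135, and without adipocyte replicate 2 or 3 the fibroblast number was 42 or 61. With 30 counts required in each library, 43 and 6 genes were left.

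Libraries that took no part in that choice gave a mixed picture for these genes. Of the 88 adipocyte genes, 66 had at least 10 counts in each IF adipocyte library, 70 in each PS and 70 in each IFPS adipocyte library. At most 3 counts in all were found for 74 of them in IF, 75 in PS and 80 in IFPS fibroblasts, and 25 had 0 counts in all 9 of those fibroblast libraries. In every wildtype pad 61 of the 88 had at least 10 counts. Of the 27 fibroblast genes, 24, 23 and 20 had at least 10 counts in each fibroblast library of IF, PS and IFPS. In the adipocytes of PS 26 of these 27 had at most 3 counts and in those of IFPS 27 did, but in IF adipocytes 10 did. More than 3 counts were found in the wildtype MECs for 24 of the 27 fibroblast genes and for 36 of the 88 adipocyte genes. The shares of other genes of like level that meet these rules were not computed.

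By the naming rule, 4 identifiers stand for the largest differences among genes with at least 50 CPM in the higher cell type. What their genes do is not given, since no symbol could be matched. ENSRNOG00000015519 was at 2029, 1365 and 1212 CPM in the adipocyte libraries and the 90th most abundant gene there. The fibroblast libraries held 0, 0 and 1 count of it, against 42223, 29926 and 30594 in the adipocytes. The ratio pooled over libraries was 94763, with a 95% counting interval of 17008 to 3742980, and edgeR's quasi-likelihood adjusted p was 2.47e-06. The wildtype MECs also held a little of it, 0.393 to 0.866 CPM. The whole pads had 387 to 1786 CPM, and those at 1344 and 1786 CPM were inside the range of the adipocytes. Pads numbered 1 to 3 in their titles held 387 to 419 CPM and those numbered 13 to 15 held 546 to 1786 CPM.

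ENSRNOG00000002911 was at 295, 300 and 267 CPM in the adipocyte libraries (287 ± 17.8, SD, n = 3). It had 0 counts in all 3 wildtype fibroblast libraries, also 0 in the 9 fibroblast libraries of the mutated lines and 0 in the wildtype MECs. With 3 counts over the fibroblast group as the floor it was at least 5980-fold higher in adipocytes, with an edgeR quasi-likelihood adjusted p of 3.53e-06. Its wildtype pad levels ran from 31.5 to 299.9 CPM with a median of 94.8. In IF adipocytes it lay between 16.7 and 122 CPM, below all 3 wildtype adipocyte libraries. The share of all genes with such a separation of IF from wildtype adipocytes was not computed.

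ENSRNOG00000015036 was at 1969, 3073 and 2378 CPM in the fibroblast libraries, the 42nd most abundant gene there, and at 1.11, 2.24 and 2.81 CPM in the adipocyte libraries. The log2 fold change was -10.23 ± 0.43 (SE, n = 3 and 3, edgeR adjusted p = 5.64e-06), a 1206-fold ratio of means. Wildtype MECs held 262 to 397 CPM and pads 14.8 to 27.7 CPM, both between the 2 cell types. ENSRNOG00000023148 was at 267, 443 and 419 CPM in the fibroblast libraries and at 0.240, 0.547 and 0.277 CPM in the adipocyte libraries. Its log2 fold change was -10.04 ± 0.36 (SE, n = 3 and 3, edgeR adjusted p = 3.53e-06), a 1059-fold ratio of means. Wildtype MECs held 4.19 to 11.9 CPM of it and pads 2.04 to 8.52 CPM. The rule chose all 4 identifiers without overlap between the wildtype groups, as 10312 (74.1%) of the genes tested were.

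**Figure D2:**
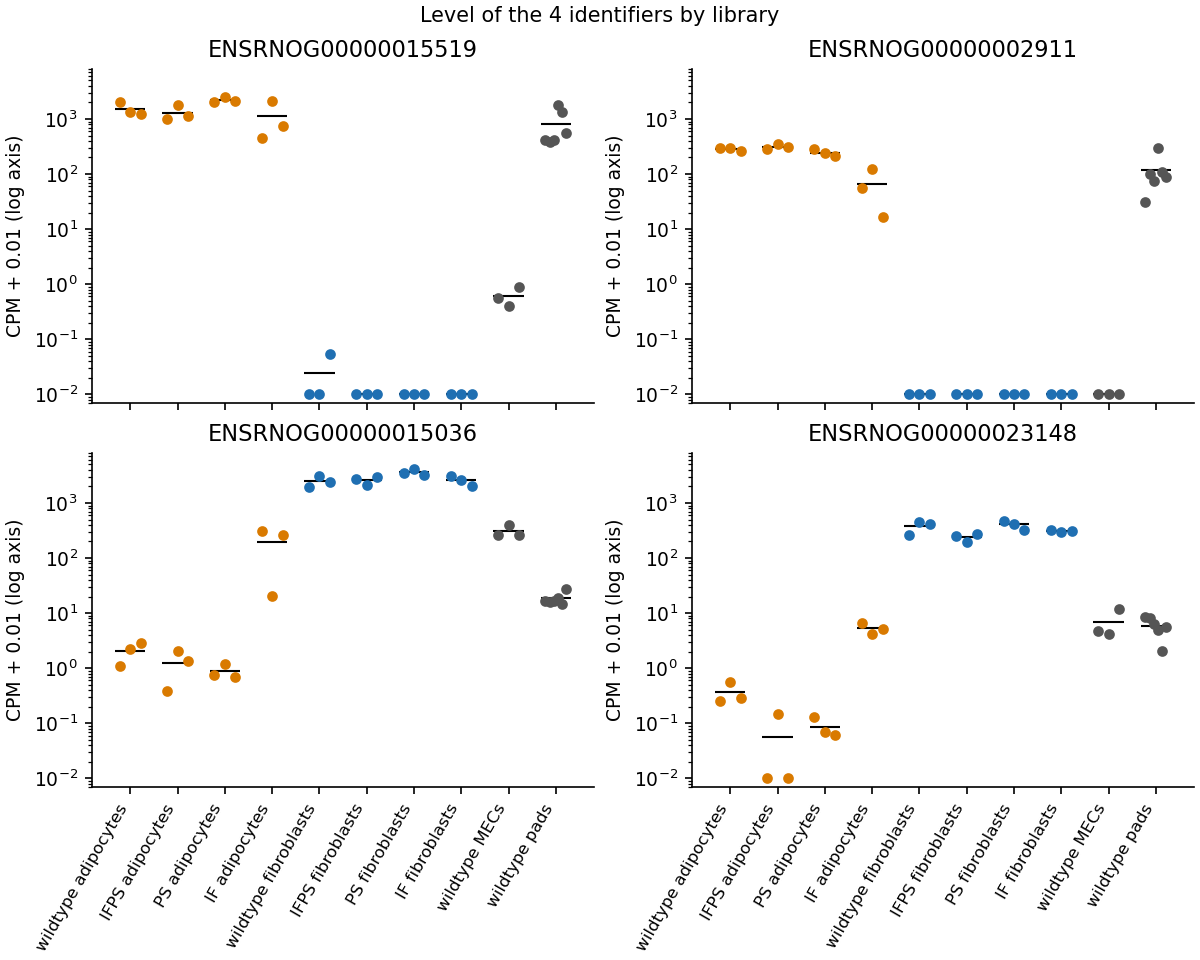
Level of the 4 identifiers in CPM plus 0.01 (log axis) in each library of the adipocytes (orange) and fibroblasts (blue) of 4 genotypes and in wildtype MECs and pads (grey). Points are libraries and bars are group means. Every adipocyte library lies above every fibroblast library for the upper pair and below it for the lower pair, and the IF adipocytes are nearer to the fibroblasts than the wildtype adipocytes for ENSRNOG00000015036 and ENSRNOG00000023148.

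The wildtype MECs resembled the fibroblasts more than the adipocytes. Over the 13911 genes, Spearman's rho of MEC libraries was 0.878 to 0.909 with fibroblasts and 0.755 to 0.802 with adipocytes, given as a description across genes. For comparison, rho was 0.781 to 0.822 between the 2 cell types, 0.983 to 0.991 within the adipocytes and 0.986 to 0.993 within the fibroblasts. Nearness of a level was split at the geometric mean of the 2 cell types. This mean vanishes for the 78 adipocyte-higher and 29 fibroblast-higher genes without counts in the other cell type. Those genes were therefore scored as nearer to the higher cell type at any level. The mean MEC level was nearer to the fibroblasts for 1397 (72.6%) of the adipocyte-higher genes and 1409 (72.9%) of the fibroblast-higher genes. Among genes not past the 2-fold test the share was 62.9% where the adipocyte mean was higher and 56.2% where the fibroblast mean was higher. MECs were above the fibroblasts themselves for 623 (32.2%) of the fibroblast-higher genes. The share was 38.4% among genes not past the test with a higher fibroblast mean. The 2 means lie closer together in genes not past the test, so a level falls outside both more easily. Their shares are therefore not directly comparable with those of the sets. MECs and fibroblasts share culture and the extraction kit as well, and the part of these in the likeness was not tested.

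Whole pads hold both cell types, with epithelium, vessels and immune cells. Their mean level was nearer to the adipocytes for 1198 (62.2%) of the adipocyte-higher genes and nearer to the fibroblasts for 1310 (67.8%) of the fibroblast-higher genes. Among genes not past the 2-fold test these shares were 42.0% nearer to the adipocytes where the adipocyte mean was higher and 48.2% nearer to the fibroblasts where the fibroblast mean was higher. Here too, the 78 adipocyte-higher and 29 fibroblast-higher genes without counts in the other cell type were scored as nearer to the higher at any level. Pads lay above both cell types for 654 (34.0%) of the first set and 468 (24.2%) of the second, against 31.1% and 35.8% of the corresponding genes not past the test. For the same reason as in MECs, these shares are not directly comparable. In such bulk samples, fewer cells of a type and less RNA per cell cannot be told apart. Spearman's rho of the pads was 0.795 to 0.839 with adipocytes and 0.784 to 0.821 with fibroblasts, so the ranges overlapped.

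**Figure D3:**
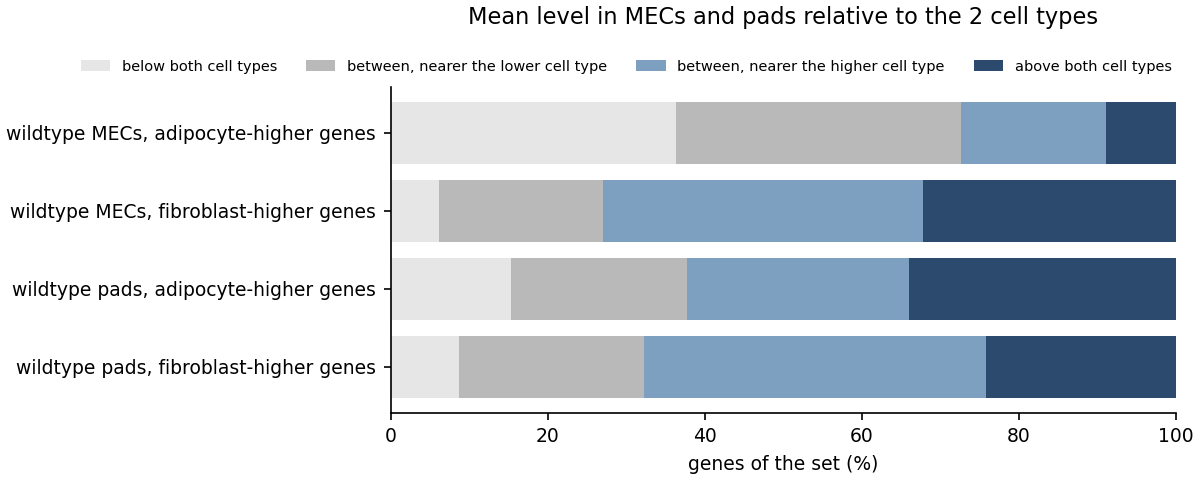
Share of each gene set (horizontal, percent of the set) whose mean level in wildtype MECs or wildtype pads lay below both cell types, between them, or above both. The fibroblast-higher genes are above both cell types for 32.2% in MECs and 24.2% in pads. The shares are 38.4% and 35.8% of the genes not past the 2-fold test with a higher fibroblast mean, which are not drawn. The 2 means of those genes lie closer together, so the shares are not directly comparable.

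The median level of each set was then followed through the series. The median of the adipocyte-higher genes was 29.96 to 40.7 CPM in wildtype adipocytes, 2.34 to 2.96 in fibroblasts, 5.59 to 6.03 in MECs and 20.3 to 23.3 in pads. The fibroblast-higher genes had medians of 1.92 to 2.28 CPM in wildtype adipocytes, 18.5 to 19.3 in fibroblasts, 15.9 to 16.8 in MECs and 11.3 to 13.3 in pads. So the fibroblast-higher genes had in MECs a median below that of fibroblasts but far above that of adipocytes, while the adipocyte-higher genes had in pads a median between the 2 cell types. In tumors the adipocyte-higher median was 9.56 to 11.5 CPM in IF, 8.70 to 16.6 in PS and 6.46 to 29.0 in IFPS, where 1 tumor came close to the lowest adipocyte library. The fibroblast-higher median in tumors was 8.69 to 12.7 CPM in IF, 8.09 to 12.4 in PS and 7.26 to 14.7 in IFPS. Genes outside both sets had medians of 27.6 to 28.2 CPM in the 6 wildtype libraries.

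**Figure D4:**
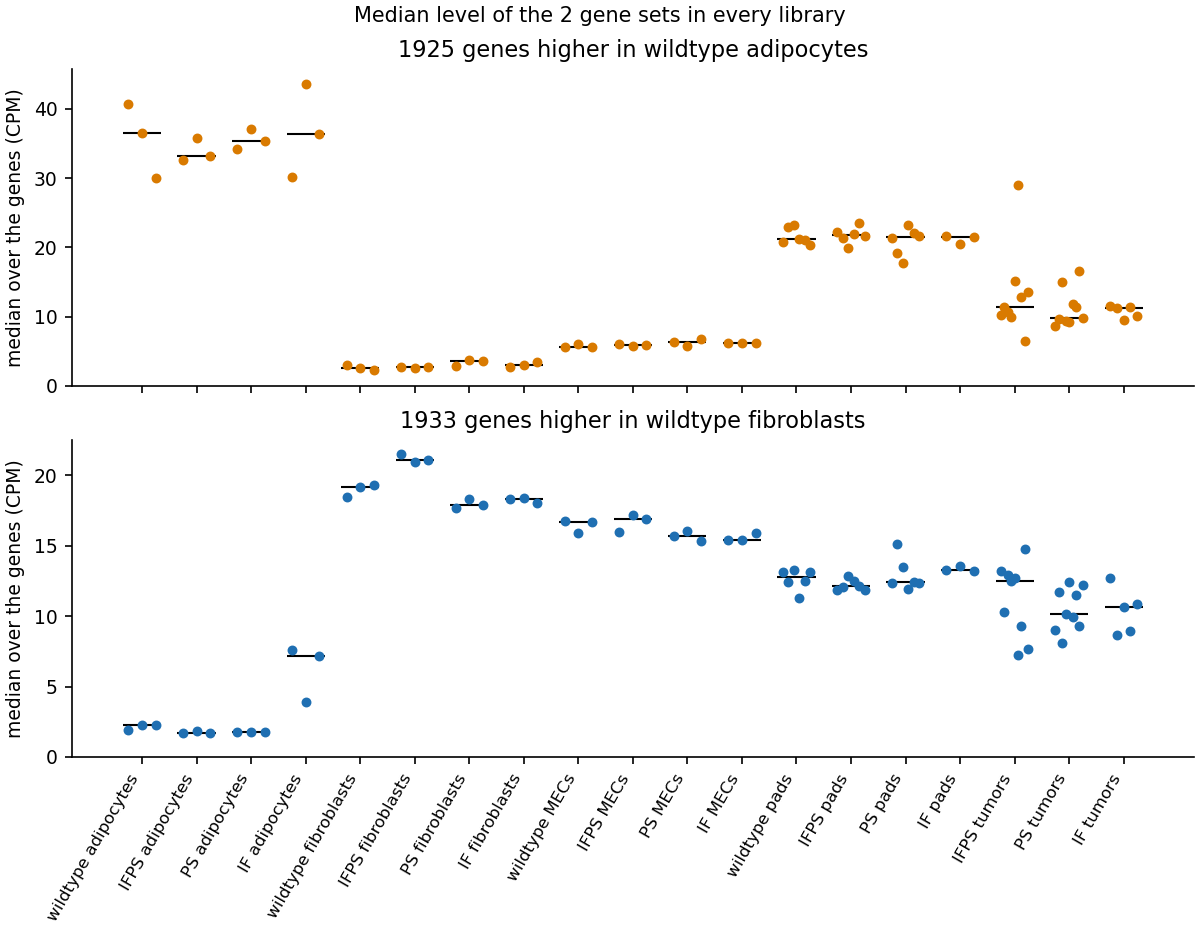
Median CPM of the adipocyte-higher genes (top) and the fibroblast-higher genes (bottom) in every library, by group, with each vertical axis starting at 0. Points are libraries and bars are group medians. Wildtype fibroblasts lie at 18.5 to 19.3 CPM and wildtype adipocytes at 1.92 to 2.28 CPM in the lower panel, and IF adipocytes are above the other adipocytes there.

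The same comparison within each mutated line used libraries that did not choose the sets. In IF, 2283 genes were over 2-fold higher in adipocytes (16%) and 1280 in fibroblasts (8.97%) of 14275 tested. In PS the numbers were 2147 (15.2%) and 2500 (17.7%) of 14089, and in IFPS 2187 (15.7%) and 2354 (16.9%) of 13914. The adipocyte-higher genes of wildtype had the same direction in nearly all cases: 1827 of 1837 tested in IF, 1831 of 1853 in PS and 1835 of 1849 in IFPS. The fibroblast-higher genes had it for 1898 of 1904 in PS and 1901 of 1901 in IFPS, but for 1736 of 1906 (91.1%) in IF. Over all genes tested in both fits, the share with the same direction was 90.9% in IFPS, 89.7% in PS and 79.8% in IF. At the median, the fibroblast-higher genes had a log2 fold change of -3.15 in IFPS, -3.11 in PS and -1.59 in IF. For the adipocyte-higher genes it was 2.96 in IFPS, 2.79 in PS and 3.06 in IF.

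**Figure D5:**
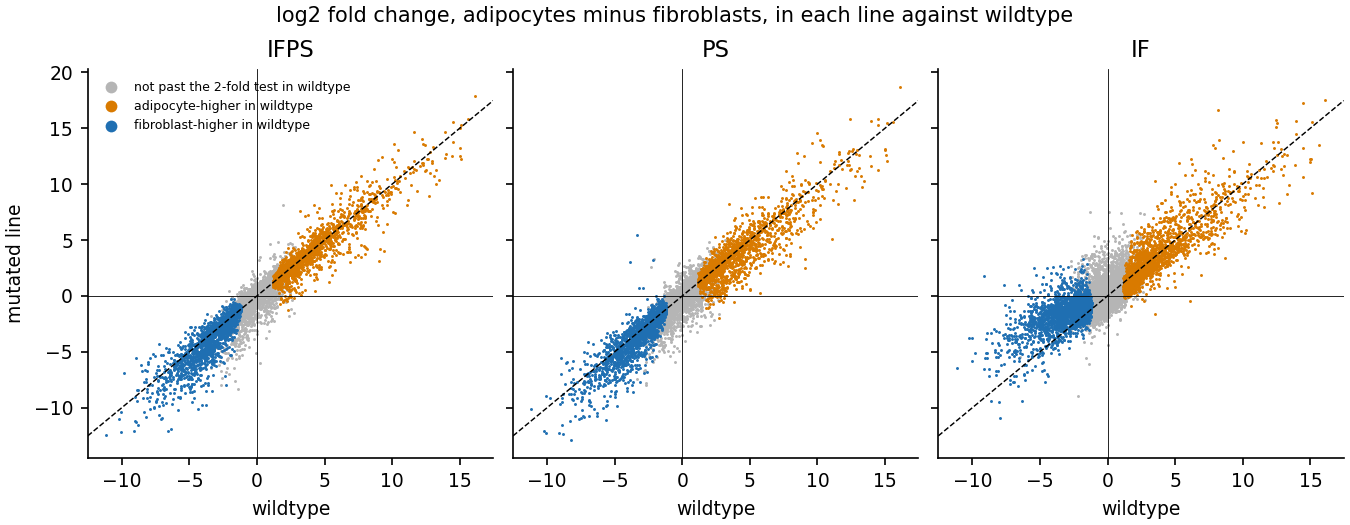
log2 fold change, adipocytes minus fibroblasts, of each gene in wildtype (horizontal) and in IFPS, PS or IF (vertical). Orange and blue mark the adipocyte-higher and fibroblast-higher genes of wildtype, grey the others, and the dashed line is equality. In the IF panel the blue points lie nearer to 0 on the vertical axis, with a median of -1.59.

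Each line was tested against wildtype for a different adipocyte to fibroblast difference (interaction term, edgeR quasi-likelihood test over 15124 genes and 24 libraries). The difference itself changed for 5501 genes (36.4%) in IF, 462 (3.05%) in PS and 13 (0.0860%) in IFPS. At an unadjusted p under 0.05 in the same test the numbers were 6938 in IF, 2795 in PS and 1937 in IFPS, of 15124 genes each. Of the 1933 fibroblast-higher genes 1176 (60.8%) changed in IF, 1117 of them toward adipocytes. The count was 492 of 1925 (25.6%) in the adipocyte-higher genes and 3615 of 10053 (36.0%) in the genes of neither set. These sets were chosen on the wildtype libraries that also enter this test. In IF adipocytes the fibroblast-higher genes took 6.13% to 8.70% of counts, against 3.01% to 3.98% in wildtype adipocytes. IF adipocyte replicate 2 stood apart from the others, with a median of 3.91 CPM over the fibroblast-higher genes against 7.62 and 7.13 in replicates 1 and 3. Without it the IF number was 7286. IF adipocytes also had the widest replicate spread (31.5%), and the part of that spread and of the higher share of fibroblast-higher genes in the result was not tested. The PS and IFPS counts varied with single libraries, staying within 1.5 times in 16 and 9 of the 24 fits without 1 library. In PS those fits gave 212 (without PS fibroblast replicate 2) to 1186 (without IF adipocyte replicate 2) genes. In IFPS they gave 2 (without wildtype adipocyte replicate 2 or IFPS adipocyte replicate 1) to 264 (without IF adipocyte replicate 2). IF adipocyte replicate 2 is in neither comparison and enters only through the shared fit.

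ENSRNOG00000015036 and ENSRNOG00000023148 were among the genes that differed in IF, as were 1176 (60.8%) of the 1933 fibroblast-higher genes. Both were chosen for their low wildtype log2 fold changes, on libraries that also enter this test. Their p-values are therefore descriptive. IF adipocytes held 308, 20.4 and 260 CPM of ENSRNOG00000015036 in replicates 1, 2 and 3, against 1.11 to 2.81 in wildtype adipocytes, and the fibroblast means were 2606 CPM in IF and 2473 CPM in wildtype. For ENSRNOG00000023148 the IF adipocytes held 4.17 to 6.75 CPM, against 0.240 to 0.547 in wildtype adipocytes, and the fibroblast means were 310 and 376 CPM. So the adipocyte levels did not overlap between IF and wildtype for either gene, but the share of all genes without such overlap was not computed. The interaction was 6.49 ± 0.89 on the log2 scale (SE, edgeR adjusted p = 3.75e-05) for ENSRNOG00000015036 and 4.18 ± 0.43 (SE, edgeR adjusted p = 1.91e-06) for ENSRNOG00000023148. The PS and IFPS adipocytes were not above the wildtype range for ENSRNOG00000015036 or ENSRNOG00000023148. For ENSRNOG00000023148 they were all below it, at 0.052 to 0.118 CPM in PS and 0 to 0.137 CPM in IFPS. These are at most 3 counts per library, against 5 to 12 in wildtype adipocytes. The PS and IFPS interactions of this gene were -2.18 and -2.16 (edgeR adjusted p = 0.143 and 0.322). For ENSRNOG00000015519 and ENSRNOG00000002911 the IF interaction was 1.49 and -2.14 (edgeR adjusted p = 0.739 and 0.9999). Their SEs were 3.03 and 16020, so it was poorly determined for these 2 identifiers.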

How the data were processed

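RNA libraries (per the labels' protocols, a KAPA mRNA kit and 50 bp paired-end sequencing) were deposited as 1 table of raw counts per Ensembl gene. The submitters' processing notes name Trim Galore, STAR 2.5.2b and the build Rnor_6.0. The counting program, the annotation and the use of strand are not given in the sources used here, so overlapping and near-identical genes are uncertain.

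Columns were matched to samples by title and grouped by description. Counts were filtered with filterByExpr, scaled with TMM and tested in edgeR 4.0.16 (R 4.3.3) by the quasi-likelihood test and, for changes over 2-fold, by glmTreat (log2 threshold 1), fitted on the 6 libraries and adjusted by Benjamini-Hochberg over all genes tested. Levels are CPM with TMM factors over all 80 libraries. The low-level floor was 3 counts, and counting intervals cover counting error only. The tests were tried on simulated data first.

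The 47357 genes of the RefSeq table matched 0 identifiers, so 33 gene lists and 12 marker lists could not be used. By the rule, the 2 highest and 2 lowest log2 fold changes were named instead, among genes past the 2-fold test, without overlap and with at least 50 CPM in the higher group. The samples and lists were chosen with earlier results of these data known. Alternatives were RLE scaling, no low-count filter, DESeq2 1.42.0, a replicate block, all 24 adipocyte and fibroblast libraries, thinning to the shallowest library, and leaving out each library.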

Additional observations from a re-analysis of the deposited data

Results flagged for a closer look

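The difference between adipocytes and fibroblasts was itself tested between lines, and these results differed. It changed for 5501 genes in IF against wildtype, for 462 in PS and for 13 in IFPS (edgeR interaction test, 15124 genes). Among the named identifiers, ENSRNOG00000015036 had an IF interaction of 6.49 on the log2 scale and ENSRNOG00000023148 one of 4.18, both with higher adipocyte levels in IF than in wildtype. Both were chosen on the wildtype libraries that also enter this test.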

How the results depend on the processing

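The counts of 9339 different and 3858 over 2-fold different genes stayed within 1.5 times under every alternative run: 8228 to 9099 and 3547 to 3992 when each library was left out, 9406 and 3291 with DESeq2, and 10641 and 4401 with all 24 libraries in the fit. The 4 identifiers kept direction and call in those fits. Within IF, PS and IFPS, where RLE scaling, no filter, the replicate block and leaving out each library were run, the counts over 2-fold stayed within 1.5 times (2920 to 4373, 4507 to 4644 and 4375 to 4654 when each library was left out). The IF interaction count ranged from 4523 to 7286 when each library was left out. The PS count of 462 became 1104 with DESeq2. The IFPS count of 13 became 26 with RLE scaling, 30 without the filter, 20 with the replicate block and 342 with DESeq2. The cause was not tested.

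Leaving out 1 library moved the PS count by over 1.5 times in 8 of 24 fits: 715 and 261 without wildtype adipocytes 1 and 2, 1186 without IF adipocytes 2, 286 and 254 without PS adipocytes 1 and 3, 236 without wildtype fibroblasts 3, and 212 and 300 without PS fibroblasts 2 and 3. It moved the IFPS count in 15 of 24, between 2 and 264: 124, 2 and 4 without wildtype adipocytes 1, 2 and 3; 2, 37 and 7 without IFPS adipocytes 1, 2 and 3; 20 and 264 without IF adipocytes 1 and 2; 3, 6 and 145 without wildtype fibroblasts 1, 2 and 3; 3, 62 and 3 without IFPS fibroblasts 1, 2 and 3; and 25 without PS fibroblasts 2.

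The numbers seen in one cell type alone, with alternatives chosen after seeing the data, were 72 and 27 after thinning, and 96 to 135 and 31 to 61 when each library was left out. With the replicate block the wildtype counts were 9446 and 3913. To look for pairing, each library's log2 levels were taken as deviations from its group mean. This used 12785 genes with a mean of at least 1 CPM. Between adipocyte and fibroblast libraries of the same number these deviations correlated at 0.227, 0.092 and 0.232. Between different numbers they correlated at -0.228 to 0.012. The deviations of a group sum to 0 for each gene, so these correlations are not independent of each other. The deviations of each library thus correlated best with those of its own number. The main fit had no replicate block because the labels do not say that a number marks 1 animal. Whether the numbers mark shared animals or batches was not tested. A gene at 0 counts may lie below what these totals detect. The summed marker levels planned were not run, for want of symbols.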
